A study of Caenorhabditis elegans with 47 samples.

Results

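The vitellogenin genes vit-1 to vit-6 are the yolk protein genes of Caenorhabditis elegans. They were followed on whole-worm expression arrays through the late larval stages of 3 transgenic strains. The members are the genes of that name, and their probe sets were found through the array's gene annotation. Of the 6 members, 5 had at least 1 probe set whose annotation named that gene alone. The annotation of no probe set named vit-3, a direct neighbour of vit-4 in the RefSeq gene table, so vit-3 was not analysed here. In all, 8 probe sets named 1 member and 2 more named vit-4 together with vit-5, out of 22548 probe sets tested. Where a gene has several probe sets they are lettered from the brightest, by mean level, so that vit-6 has sets A and B, vit-4 has sets A, B and C, and vit-4 or vit-5 has joint sets A and B. A member with no letter given is read from its brightest set.

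The 47 arrays came from worms expressing GFP (16 arrays), worms expressing GFP::degron, a GFP joined to a peptide that marks proteins for breakdown (16 arrays), and worms expressing Abeta, the amyloid peptide of Alzheimer's disease (15 arrays). All 3 strains were fed OP50 bacteria and kept at 16 °C up to the start of the third larval stage, when the temperature was raised to 25 °C. Worms were collected at that moment (T0) and at 4-hour intervals up to T20, where the number is the hours after the upshift. Each strain gave 4 arrays at T8, 4 at T16, 5 at T12 (4 in Abeta) and a single array at T0, T4 and T20. The labels describe the repeats as biological and name no promoter of the transgenes and no other allele of the strains. GFP is the control for a foreign protein, and GFP::degron for one that is unstable.

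Vitellogenins are large lipid-binding proteins. In the adult hermaphrodite they are made in the intestine, secreted into the body cavity as lipoprotein particles and taken up by growing oocytes through RME-2, a receptor of the LDL receptor family. vit-1 to vit-5 encode related large yolk proteins, and vit-6 encodes the precursor of the smaller ones. Their transcripts are nearly absent in young larvae and become some of the most abundant of the adult hermaphrodite. Transcription is controlled by intestinal GATA factors such as ELT-2, by the homeodomain proteins UNC-62 and CEH-60 and by the heterochronic pathway that ends in LIN-29, while MAB-3 keeps the genes off in males.

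One array stood apart from the rest. The third GFP repeat of T8 had a median intensity of 20.3, against 60.1 to 108.7 on the other 46 arrays, and 43.8% of its probe sets were under an intensity of 16, against 11.3% to 26.1%. The median difference of all probe sets was 0.47 (log2) in the step from T8 to T12 of GFP and 0.32 from T8 to T16. Both include this array, and how much of them it accounts for was not tested. Each difference is for this reason counted from the median of all probe sets in its comparison. Its adjusted p is that of the difference before this subtraction. Shares of all probe sets called in comparisons with GFP at T8 therefore include any shift from the third GFP repeat of T8. No 2 arrays were identical. Levels are log2(intensity + 1), so a difference understates the change of a probe set that starts near 0. Levels of different probe sets are not comparable with each other. In whole worms, more RNA per cell and more cells of a type cannot be told apart, nor can a mixture of worms of different ages.

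**Figure D1:**
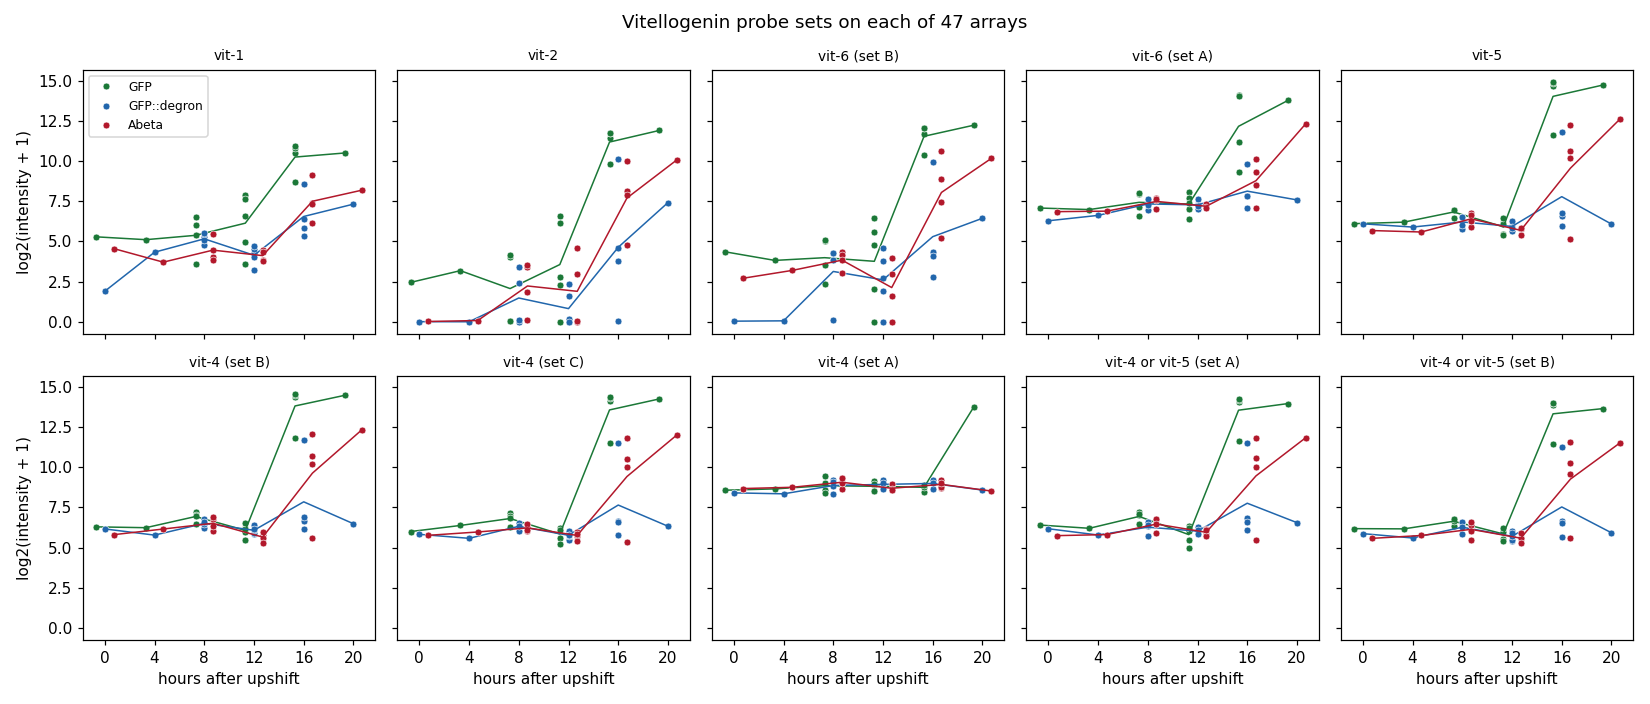
Levels of the 10 vitellogenin probe sets, log2(intensity + 1), against hours after the upshift. Each point is 1 array (47 in all), each line joins the group means of a strain, and points of the 3 strains are set slightly apart along the hours; in GFP, 9 of the 10 probe sets stand far above their earlier levels at 16 h.

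Before T12 the vitellogenin probe sets stayed low in all 3 strains. Over the 18 arrays of T0, T4 and T8, vit-1 ran from 1.91 to 6.54 with a median of 4.93, vit-2 from 0.01 to 4.18 with a median of 0.97, and vit-5 from 5.59 to 6.99 with a median of 6.25. The highest of these 18 arrays is used as the top of the early range of each probe set. For vit-6, set A ran from 6.29 to 8.00 and set B, the dimmer, from 0.04 to 5.11. The floor of a probe set differed by several log2 units among members, so a rise from a low floor shows earlier on this scale than the same rise from a high one. Between T0 and T4, with the strain as a block, none of the 5 members was called by limma, none had an unadjusted p under 0.05, and no probe set on the array was called in either direction (0.0%).

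At T12 the GFP arrays differed among themselves. vit-1 stood at 7.91, 5.00, 3.57, 7.63 and 6.60 on GFP repeats 1 to 5, so 3 of 5 arrays lay above its early range. vit-2 stood at 6.58, 2.28, 0.02, 6.14 and 2.81, with repeats 1 and 4 above. Set B of vit-6 read 6.45, 0.01, 2.02, 5.59 and 4.76, again with repeats 1 and 4 above. In contrast, vit-5 read 6.14, 5.45, 5.42, 6.10 and 6.46 and did not exceed its early range on any of the 5 arrays, with repeats 2 and 3 below it. None of the vit-4 probe sets or of the joint sets exceeded theirs either. Set A of vit-6 exceeded its early range on repeat 1 alone, at 8.11 against 8.00. Over all probe sets, 0.554% had all 5 GFP arrays of T12 above the early range, 0.328% all 5 of GFP::degron and 0.169% all 4 of Abeta.

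The same arrays can be read on the linear scale, where a floor weighs less. Here the rise over the median of the early arrays is given as a percent of the largest such rise of that probe set on any array. On GFP repeat 1 of T12, vit-1 had 10.7% of its largest rise, vit-2 had 2.42%, vit-6 (set B) had 1.53% and vit-5 had -0.0186%. On repeat 4 the values were 8.48% for vit-1, 1.77% for vit-2, 0.703% for vit-6 (set B) and -0.0238% for vit-5. On both arrays this percent was largest for vit-1, with no rise seen for vit-5. These arrays were picked for their raised levels, and the percent depends on the highest level of each probe set, lowest for vit-1. In the permutation test described further on, steps were averaged over the 3 strains and vit-6 was read from set A. From T8 to T12 those of vit-1, vit-2 and vit-6 did not differ (exact permutation, adjusted p = 0.724 to 0.884). With vit-6 and vit-4 read from set B the adjusted p was 0.379 to 0.638 (exact permutation). The average takes in GFP::degron and Abeta, so it cannot decide on a lead within GFP. A lead of vit-1 is thus not shown.

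No member passed the test for the step from T8 to T12 in any strain. In GFP the differences were 0.28 ± 0.714 (SE) for vit-1 (adjusted p = 0.439), 1.02 ± 1.46 for vit-2 (adjusted p = 0.455) and -1.39 ± 0.92 for vit-5 (adjusted p = 0.47). None of the 10 probe sets had an unadjusted p under 0.05 in this step in any strain. The SE comes from a spread shared by all 9 groups, those of T16 included. For vit-5 the SD between arrays was 0.26 at T8 and 0.46 at T12 in GFP. At T16 it was 1.61 in GFP and 3.07 in Abeta. A step of vit-5 beyond its own spread at T8 and T12 can therefore be missed by this test. Of all probe sets, 6.82% were called higher and 0.279% lower in GFP, and 0.0% in GFP::degron and in Abeta. The shares in GFP include any shift from the dim array of T8. In GFP::degron and Abeta at T12, vit-1 ran from 3.21 to 4.69 and from 3.81 to 4.46, inside its early range on all 9 arrays. vit-2 on the second Abeta repeat, at 4.57, was the only value of a member above an early range in those 2 groups.

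**Figure D2:**
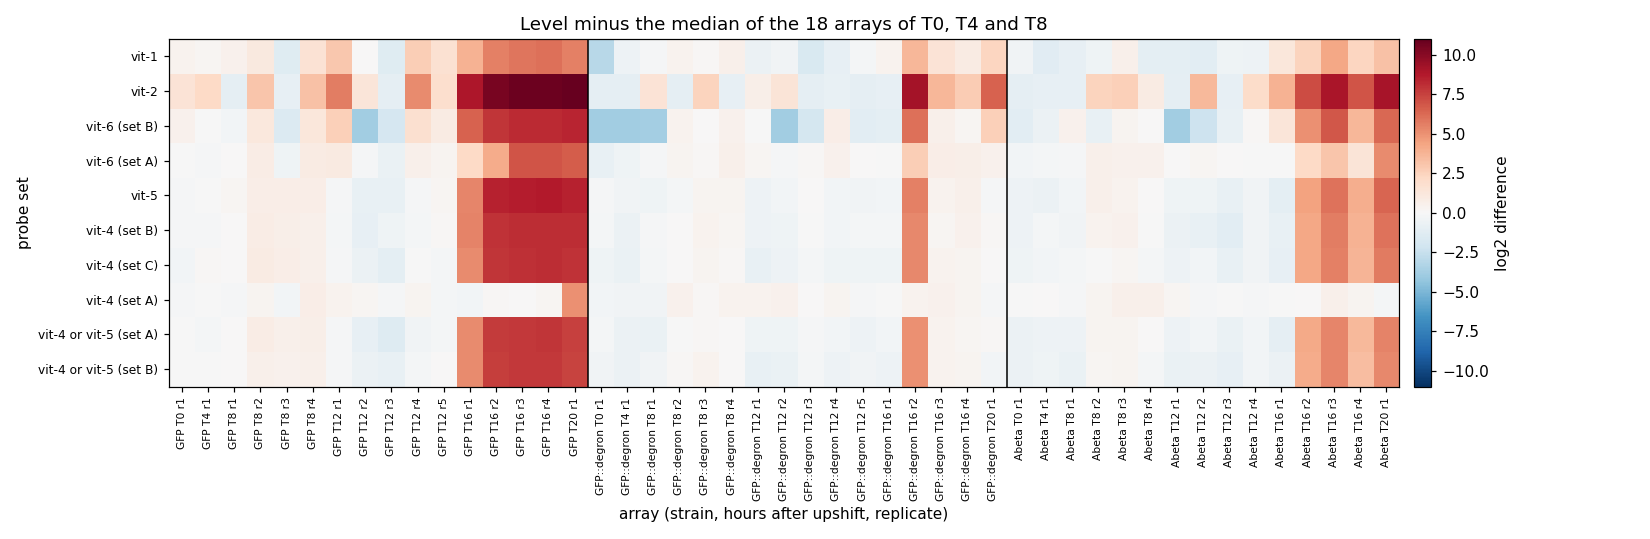
Log2 level of each vitellogenin probe set (rows) on each array (columns) minus the median of the 18 arrays of T0, T4 and T8. On GFP repeats 1 and 4 of T12 and on GFP::degron T20 the rows of vit-1, vit-2 and vit-6 (set B) are raised while those of vit-4 and vit-5 stay near 0.

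By T16 the yolk genes were on in every GFP sample. vit-1 stood at 8.73, 10.51, 10.81 and 10.96 on the 4 repeats, and vit-2 at 9.83, 11.45, 11.73 and 11.75. vit-5 stood at 11.62, 14.70, 14.85 and 14.94. Set B of vit-6 read 10.37, 11.70, 12.04 and 12.08, and set A read 9.33, 11.22, 14.08 and 14.04. Repeat 1 was the lowest array for each of these, and all 4 arrays lay above the early range, which held for 10.6% of all probe sets.

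From T12 to T16 in GFP, 4 of the 5 members rose, and 9 of the 10 probe sets, against 8.52% of all probe sets called higher. vit-1 rose by 4.13 ± 0.714 (SE, adjusted p = 0.000165), vit-2 by 7.64 ± 1.46 (adjusted p = 0.000492), vit-5 by 8.13 ± 0.92 (adjusted p = 3.85e-07) and vit-6 by 4.85 ± 0.643 (adjusted p = 4.14e-06). The median of the 5 members was 4.85 above that of all probe sets. The same 4 members were higher at T16 than at T8, where 14.2% of all probe sets were called higher and 0.581% lower, with differences from 4.41 for vit-6 to 8.80 for vit-2. The count from T12 to T16 stayed at 4 when any 1 array was left out.

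The exception was vit-4 as read by set A, its brightest. Set A read 8.45, 8.85, 8.79 and 8.91 in GFP at T16, against 8.53 to 9.12 at T12, a step of -0.05 ± 0.214 (adjusted p = 0.863). At T20 in GFP it read 13.75, the only array of the 47 on which it left the range of 8.31 to 9.44 seen early. The other 2 probe sets naming vit-4 alone followed vit-5. Set B read 11.83, 14.35, 14.51 and 14.56 in GFP at T16 and rose by 7.76 ± 0.844 from T12 (adjusted p = 2.78e-07), and set C rose by 7.74 ± 0.854 (adjusted p = 3.02e-07). The vit-4, vit-5 and joint probe sets and set A of vit-6 carry the suffixes by which the maker marks probe sets that may share sequence with other transcripts. Probe sequences were not used here, so which of the vit-3, vit-4 and vit-5 transcripts each of them reads was not tested.

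How alike the probe sets were across the 47 arrays is given as Pearson's r, as a description, since all points share arrays and the change of brightness between them. The vit-5 probe set, the 2 other vit-4 probe sets and both probe sets naming vit-4 and vit-5 had r from 0.9965 to 0.9982 with each other. vit-1, vit-2 and vit-6 (set B) had r from 0.893 to 0.922 among themselves. The 2 probe sets of vit-6 had r of 0.877, and set A of vit-4 had r from 0.343 to 0.456 with the other 9.

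The 2 probe sets of vit-6 differed in timing. On GFP repeat 2 of T16, set B had 68.7% of its largest rise and set A had 13.0%. On repeat 1 these were 27.2% and 2.91%, while repeats 3 and 4 were at 87.4% and 89.8% for set B and at 100% and 97.0% for set A. In GFP::degron at T20, set B (6.45) was above its early range and set A (7.59) was within it.

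In Abeta worms the yolk genes also rose by T16, to levels that varied more between arrays. At T16 vit-1 read 6.18, 7.37, 9.16 and 7.31 on Abeta repeats 1 to 4, vit-2 read 4.77, 8.17, 9.98 and 7.90, and vit-5 read 5.14, 10.66, 12.23 and 10.23. Repeat 1 was the lowest of the 4 for every member, and on it only vit-2 and vit-6 by set B (5.19 against an early limit of 5.11) were above the early range. Over all probe sets, 6.54% had all 4 Abeta arrays of T16 above that range, which held for vit-2 and set B of vit-6 among the 10 here. From T12 to T16 in Abeta 3 of the 5 members rose, and 8 of the 10 probe sets, against 5.14% of all probe sets called higher and 1.24% lower.

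In that step vit-1 rose by 3.38 ± 0.753 (adjusted p = 0.00383), vit-2 by 5.80 ± 1.54 (adjusted p = 0.0165) and vit-5 by 3.87 ± 0.969 (adjusted p = 0.0106). For vit-6, set A differed by 1.58 ± 0.678 (adjusted p = 0.185) and set B rose by 5.91 ± 1.35 (adjusted p = 0.00459). Without Abeta repeat 3 of T16, the highest array, 1 member was called. vit-2 was not called without Abeta repeat 1 or 3 of T12 (adjusted p = 0.0753 and 0.0725). vit-5 was not called without Abeta repeat 2 of T16 (adjusted p = 0.0509) or with the groups compared alone (adjusted p = 0.0827). From T8 to T16, 2 members rose, vit-1 by 3.08 ± 0.753 (adjusted p = 0.0112) and vit-2 by 5.51 ± 1.54 (adjusted p = 0.0312), against 4.24% of all probe sets called higher and 0.0887% lower. vit-5 differed by 3.20 ± 0.969 (adjusted p = 0.0587), and with the replicate number as a block it was called too (adjusted p = 0.0376). This count of 2 rested on single arrays. It was 0 without Abeta repeat 3 of T16 or repeat 4 of T8, and 1 without Abeta repeat 2 or 4 of T16 or repeat 1 of T8. At T20 the single Abeta array read 8.20 for vit-1, 10.07 for vit-2, 12.63 for vit-5 and 12.32 for vit-6 (set A).

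In GFP::degron worms 1 array carried the rise at T16. vit-1 read 5.34, 8.61, 6.42 and 5.87 on repeats 1 to 4, vit-2 read 0.03, 10.11, 4.62 and 3.80, and vit-5 read 5.95, 11.80, 6.60 and 6.80. Repeat 2 was above the early range for 9 of the 10 probe sets, and no other repeat was above it except vit-2 on repeat 3. All 4 arrays lay above the early range for 1.55% of all probe sets. No member was called from T12 to T16, where 0.217% of all probe sets were called higher and 0.115% lower. An unadjusted p under 0.05 was reached by 2 members and by 7 of the 10 probe sets. All were higher, as were 2194 of all 22548 probe sets at that threshold. vit-1 differed by 2.32 ± 0.714 (adjusted p = 0.0941) and vit-2 by 3.72 ± 1.46 (adjusted p = 0.188). Without GFP T8 repeat 3, which is no array of this step but enters the shared spread, 1 member was called, and without GFP::degron T16 repeat 1 there were 2. From T8 to T16 no member was called, 1 had an unadjusted p under 0.05, and 0.386% of all probe sets were called higher and 0.0222% lower. At the unadjusted threshold 1167 of all 22548 probe sets were higher.

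At T20 the single GFP::degron array read 7.33 for vit-1, 7.42 for vit-2 and 6.45 for vit-6 (set B), all above the early range, as were 13.7% of all probe sets. On the same array vit-5 read 6.08 and vit-4 (set B) 6.48, both within it. As a percent of the largest rise, vit-1 had 6.59%, vit-2 4.40%, vit-6 (set B) 1.51% and vit-5 -0.0268%. The GFP array of T20 read 10.51 for vit-1, 11.91 for vit-2, 14.73 for vit-5 and 13.79 for vit-6 (set A). All 10 probe sets were above the early range on it, as were 19.7% of all probe sets, and on the Abeta array of T20 9 of the 10 were, against 17.3%. With the strain as a block, 3 of the 5 members were higher at T20 than at T0, against 13.4% of all probe sets called higher and 9.45% lower. vit-1 rose by 4.79 ± 0.627 (adjusted p = 0.00281), vit-2 by 9.0 ± 0.527 (adjusted p = 0.000147) and vit-6 by 4.52 ± 1.1 (adjusted p = 0.0288). vit-5 differed by 5.22 ± 1.67 (adjusted p = 0.0711), with 1 array per strain at each time. The count was 2 without the GFP or the Abeta arrays and 4 without those of GFP::degron.

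**Figure D3:**
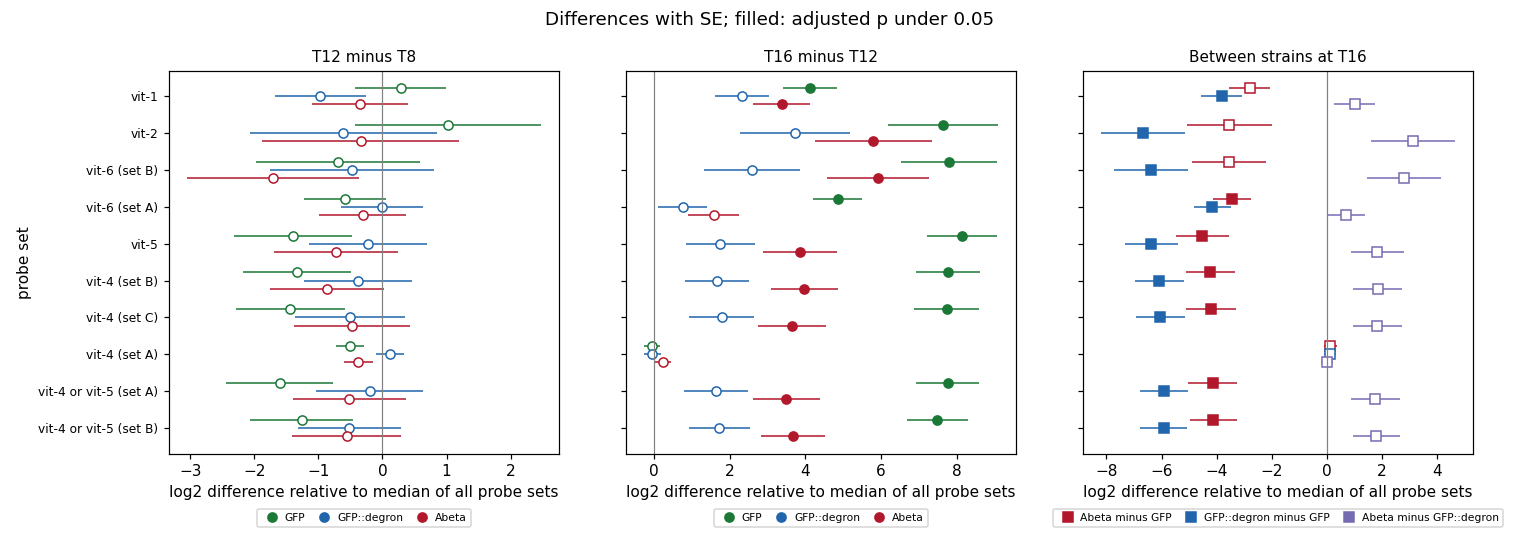
Log2 difference of each vitellogenin probe set, relative to the median of all probe sets, with its SE: T12 minus T8 and T16 minus T12 within each strain, and between strains at T16. Filled symbols have an adjusted p under 0.05 in limma; from T8 to T12 no symbol is filled.

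At T16 the yolk genes were lower in GFP::degron than in GFP. Of the 5 members 4 were called lower, and 9 of the 10 probe sets, against 3.11% of all probe sets called lower and 1.78% higher. The differences were -3.82 ± 0.753 for vit-1 (adjusted p = 0.00287), -6.67 ± 1.54 for vit-2 (adjusted p = 0.00896), -6.37 ± 0.969 for vit-5 (adjusted p = 0.00021) and -4.16 ± 0.678 for vit-6 (adjusted p = 0.000491). The groups overlapped for vit-2, vit-5 and vit-6, where repeat 2 of GFP::degron exceeded repeat 1 of GFP, and not for vit-1. Without GFP::degron repeat 1 of T16 the count was 3. The difference for vit-4 (set A) was 0.12 ± 0.226 (adjusted p = 0.677).

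Abeta was lower than GFP at T16 for fewer members. Called lower were vit-5, by -4.52 ± 0.969 (adjusted p = 0.0293), and vit-6, by -3.44 ± 0.678 (adjusted p = 0.0172), so 2 of 5 members and 6 of 10 probe sets, against 0.235% of all probe sets called lower and 0.0887% higher. vit-1 differed by -2.81 ± 0.753 (adjusted p = 0.166) and vit-2 by -3.54 ± 1.54 (adjusted p = 0.845). Set B of vit-6 differed by -3.55 ± 1.35 (adjusted p = 0.621). The count rested on single arrays. It was 0 without GFP repeat 3 or 4 or Abeta repeat 1 or 4 of T16, 1 without GFP repeat 2, and 3 without GFP repeat 3 of T8 or Abeta repeat 3 of T16. With the fit limited to the groups compared it was 0.

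Between Abeta and GFP::degron at T16 no member was called by limma. None of the 5 members had an unadjusted p under 0.05, though 2 of the 10 probe sets did. Both were higher, as were 715 of all 22548 probe sets at that threshold. Of all probe sets, 0.00443% were called higher and 0.0177% lower. The difference was 1.01 ± 0.753 for vit-1, 3.12 ± 1.54 for vit-2 and 1.83 ± 0.969 for vit-5, each with an adjusted p of 1.00. At T8 and at T12 no member was called between any 2 strains. Of all probe sets, GFP::degron minus GFP at T8 had 11.2% called higher and 0.102% lower, Abeta minus GFP at T8 had 0.0266% higher, and Abeta minus GFP::degron had 0.0222% lower at T8 and 0.00887% lower at T12. At T8 no member had an unadjusted p under 0.05. At T12 vit-1 alone did, with -2.04 ± 0.714 in Abeta minus GFP (adjusted p = 0.701) and -2.03 ± 0.674 in GFP::degron minus GFP (adjusted p = 0.644). At the unadjusted threshold 605 and 576 of all 22548 probe sets were lower in these 2 comparisons.

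The test of whether the change from T8 to T16 itself differed between strains called no member. For GFP::degron minus GFP 4 members had an unadjusted p under 0.05, with -3.09 ± 1.07 for vit-1 (adjusted p = 0.211), -5.58 ± 2.17 for vit-2 (adjusted p = 0.365), -5.24 ± 1.37 for vit-5 (adjusted p = 0.0847) and -3.55 ± 0.959 for vit-6 (adjusted p = 0.0847). The count was 4 without GFP::degron T16 repeat 2, 2 without GFP T16 repeat 1 or Abeta T16 repeat 3, and 1 without Abeta T16 repeat 1. Called lower in this test were 0.0976% of all probe sets, and 1832 of 22548 were lower at an unadjusted p under 0.05. For Abeta minus GFP 2 members had an unadjusted p under 0.05, 1 was called without GFP T16 repeat 1, and 0.0133% of all probe sets were called lower. At the unadjusted threshold 666 of all 22548 probe sets were lower. For Abeta minus GFP::degron none had an unadjusted p under 0.05.

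The arrays also differed in how far the rest of the transcriptome had moved. A stage score was made from the 500 probe sets with the strongest change from T8 to T16 in GFP, the vitellogenin probe sets and the dim array left out. It projects each array on that change, so that the difference between the GFP means of those times is 1 unit. GFP at T16 scored 0.78 to 0.88, Abeta at T16 scored 0.33 to 0.86, and GFP::degron at T16 scored -0.28 to 0.70. The array of GFP::degron with raised yolk genes, repeat 2, had the highest score of its group, and Abeta repeat 1, with the lowest yolk genes, had the lowest of its group. With this score as a covariate, no member was called at T16 in GFP::degron minus GFP or in Abeta minus GFP. The difference for vit-5 became -3.74 (adjusted p = 0.14) in GFP::degron minus GFP and -3.54 (adjusted p = 0.12) in Abeta minus GFP, and for vit-2 in GFP::degron minus GFP it became -0.96 (adjusted p = 0.842). The score is set by the GFP samples themselves, so age of the worms and strain cannot be told apart by it.

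Several arrays lay between the early and the late scores, and on them the members were unequally raised. GFP T12 repeats 1 and 4 scored 0.34 and 0.25, as given above with vit-1, vit-2 and vit-6 (set B) above their early range and vit-5 not. Abeta T16 repeat 1 scored 0.33, with vit-2 at 4.77 above its early range and vit-5 at 5.14 below its early range. Abeta T16 repeat 4 scored 0.40, and there vit-5 was raised too, at 10.23. The GFP::degron array of T20 scored 0.59 with vit-5 at 6.08. At a score of 0.63, Abeta T16 repeat 2 had vit-5 at 10.66.

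**Figure D4:**
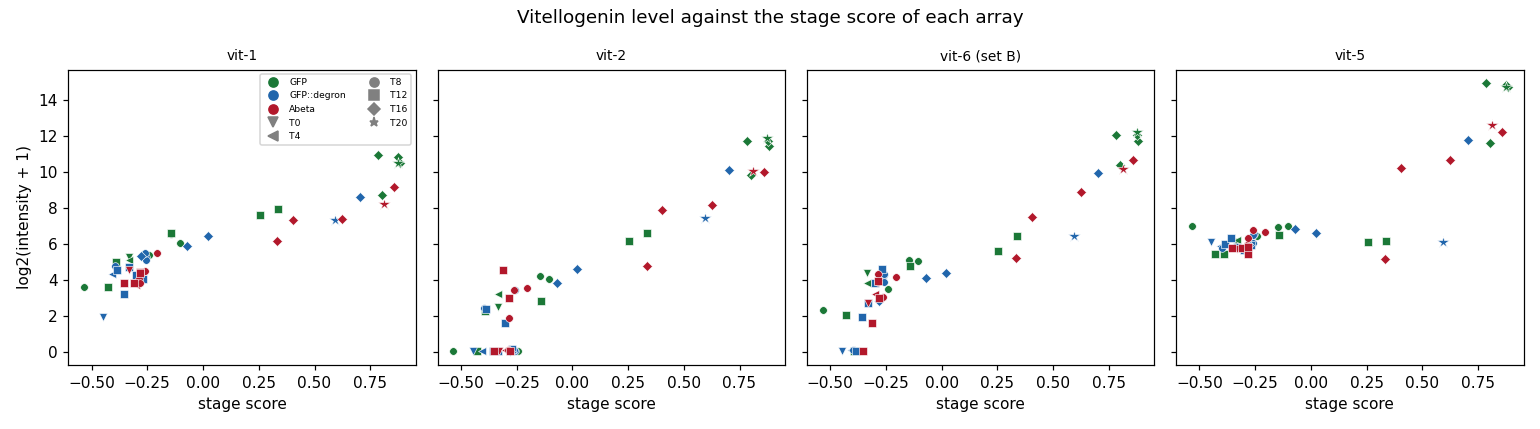
Level, log2(intensity + 1), of vit-1, vit-2, vit-6 (set B) and vit-5 against the stage score of each array, which is built without the vitellogenin probe sets. Colours give the strain and symbols the hours; vit-5 stays near 6 on GFP T12 repeats 1 and 4 and GFP::degron T20, while vit-1, vit-2 and vit-6 are above their early levels there.

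The hour of onset was described by where the line through the group means crosses the midpoint between the lowest and highest group mean of a probe set. In GFP this was 12.1 h for vit-1, 13.3 h for vit-2, 13.2 h for vit-6 (set B), 14.1 h for vit-5, 14.1 h for vit-4 (set B) and 14.2 h for vit-6 (set A). The spread between arrays at the crossing amounted to 1.78 h for vit-1, 1.45 h for vit-2 and 0.793 h for vit-5, so neighbours in this order do not differ beyond their spread. In Abeta the crossing came at 14.5 h for vit-1, 14.8 h for vit-2, 14.7 h for vit-6 (set B), 16.8 h for vit-5 and 17.4 h for vit-6 (set A). The spread in Abeta was 1.46 h for vit-1 and 4.01 h for vit-5. In GFP::degron vit-1 crossed at 15.4 h, vit-2 at 17.9 h and vit-6 (set B) at 18.9 h, with spreads of 2.38 h, 5.98 h and 11.07 h, and the vit-4 and vit-5 probe sets and set A of vit-6 had not crossed by T20. Without GFP::degron repeat 2 of T16 these crossings were at 16.9 h, 18.7 h and 19.5 h. The crossing of vit-4 (set A) in GFP was at 17.8 h. Collections were 4 h apart, and the values past T16 rest on 1 array. The midpoint of vit-1, 6.21, was set by 1 low array, GFP::degron T0 at 1.91. It lies under the top of the early range of vit-1, 6.54. The crossings of vit-1 in all 3 strains, and its first place among the members, thus depend on that array.

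The sizes of steps were tested within arrays. A larger step can also come from a lower floor or a wider range of a probe set. A difference in steps therefore does not show which gene rose first. For each pair of members the difference of their log2 levels on the same array was compared between times, averaged over the 3 strains, by an exact two-sided permutation test of the times within strains (1111320 regroupings), with 20 tests adjusted together. From T12 to T16 the steps differed for 7 of 10 pairs, and from T8 to T12 for 2. These 2 were vit-4 (set A) minus vit-5, at 0.53 (exact permutation, adjusted p = 0.00667), and vit-5 minus vit-6, at -0.48 (exact permutation, adjusted p = 0.00431). vit-5 itself stepped by -0.64 there, over the 3 strains. Over the 3 strains vit-2 stepped by 5.75 from T12 to T16 and vit-1 by 3.30, a difference of -2.44 for vit-1 minus vit-2 (exact permutation, adjusted p = 0.00374), of the same sign in each strain. Of the 7 pairs 4 held vit-4 as read by set A, whose own step was 0.08. vit-1 and vit-5 did not differ past the threshold from T12 to T16, at -1.31 over the strains (exact permutation, adjusted p = 0.0885), with -4.0 in GFP and 0.56 in GFP::degron.

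This test of steps depended on the probe set. With both vit-4 and vit-6 read from set B, choices made after the values were seen, 2 of 10 pairs differed from T12 to T16 and none from T8 to T12. The 2 were vit-1 against vit-2 and vit-1 against vit-6 (-2.16, exact permutation, adjusted p = 0.0255). With these probe sets and a pseudocount of 16, which damps steps near the floor, 2 pairs differed from T8 to T12 and 4 from T12 to T16. Those of the first step were vit-2 above vit-4 by 0.79 and vit-2 above vit-5 by 0.72 (exact permutation, adjusted p = 0.0236 for both). In the second step vit-1 stepped less than each of vit-2, vit-4, vit-5 and vit-6, by -1.11, -1.56, -1.68 and -1.20.

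The genes whose levels were most like those of the members over the 47 arrays were found by Pearson's r among probe sets naming 1 gene. For vit-2 the closest were ssp-10 (r = 0.944), a gene of the sperm-specific family, T23F11.2 (r = 0.943) and cyn-2 (r = 0.943), a cyclophilin. For vit-5 they were col-81 (r = 0.966), a cuticle collagen, nep-4 (r = 0.965), a neprilysin peptidase, and F55B11.2 (r = 0.960). For vit-1 they were C16A11.7 (r = 0.933), F36D3.16 (r = 0.933) and C27D6.3 (r = 0.930). For vit-6 they were ZC373.2 (r = 0.928), perm-4 (r = 0.924, by another probe set than the one used further on) and egg-1 (r = 0.921), and for vit-4 (set A) lin-36 (r = 0.736), zyg-8 (r = 0.713) and ZC190.7 (r = 0.703). By mean r over the 5 members the first 6 were egg-1 (0.822), an egg surface receptor, perm-4 (0.818), an eggshell protein, gln-6 (0.807), T24D1.3 (0.806), rme-2 (0.804), the yolk receptor, and puf-5 (0.802), an RNA-binding protein of oocytes. All arrays share the passage of time, so these r describe a shared time course, apart from vit-4 (set A). That set left its early range on the GFP array of T20 alone. There lin-36 read 8.27, zyg-8 8.45 and ZC190.7 9.82, each above its mean in every other group. The r of vit-4 (set A), and its part of the mean r, thus do not describe a time course shared by the strains.

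The receptor that takes yolk into oocytes rose in the same step as the yolk genes. rme-2 read 6.96 to 7.84 on the GFP arrays of T12 and 9.45 to 10.69 at T16, with no overlap. It rose by 2.68 ± 0.366 from T12 to T16 in GFP (adjusted p = 6.88e-06) and by 1.83 ± 0.386 in Abeta (adjusted p = 0.00221), and differed by 0.65 ± 0.366 in GFP::degron (adjusted p = 0.308). At T16 it was lower in GFP::degron than in GFP by -2.31 ± 0.386 (adjusted p = 0.000768). Of the 11 listed genes of yolk assembly and uptake, rme-2 was the only one called from T12 to T16 in GFP, where 8.52% of all probe sets were called higher, and the median of the list was -0.31. The others act in endocytic traffic of many cells or, like dsc-4, a microsomal triglyceride transfer protein homologue, in loading lipid.

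Among 21 listed regulators of yolk genes, none rose from T12 to T16 in GFP and 5 fell, against 8.20% of all probe sets called lower. Those 5 were lin-29, by -1.53 ± 0.353 (adjusted p = 0.00271), unc-62, by -1.01 ± 0.307 (adjusted p = 0.0195), pqm-1, by -1.09 ± 0.304 (adjusted p = 0.0111), sma-9, by -1.04 ± 0.309 (adjusted p = 0.0171), and nhr-80, by -0.75 ± 0.264 (adjusted p = 0.0429). lin-29, the last transcription factor of the heterochronic pathway, was above its early range on all 5 GFP arrays of T12, at 8.45 to 8.74, and no longer above it at T16, at 6.30 to 7.66. It also fell in Abeta, by -1.21 ± 0.372 (adjusted p = 0.0461).

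From T8 to T16 in GFP 2 of the 21 regulators rose, against 14.2% of all probe sets. They were ceh-60, by 2.07 ± 0.758 (adjusted p = 0.0278), and lin-28, by 1.08 ± 0.372 (adjusted p = 0.00764). Both differences include the dim GFP array of T8. The mean level of the list ran from 4.91 to 7.66 over the GFP arrays of T8 and from 7.11 to 7.34 at T16. Whether the calls hold without the dim array was not tested. ceh-60, the homeodomain partner of UNC-62, was above its early range of up to 6.44 on 2 of 5 GFP arrays at T12 and on all 4 at T16, and on all 4 Abeta arrays at T16. mab-3 differed by -0.60 ± 0.193 from T8 to T16 in GFP (adjusted p = 0.393) and elt-2 by 0.02 ± 0.353 (adjusted p = 0.63), and neither was called in the T12 to T16 step of GFP or Abeta or between strains at T16.

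The tissue that makes yolk gave a steady background. Of 11 measured intestinal genes of 12 listed, none rose from T12 to T16 in GFP, 1 fell (cpr-1, a cathepsin B, by -1.65 ± 0.342, adjusted p = 0.000993), and the list median was -0.24, with 8.52% of all probe sets called higher and 8.20% lower. The mean level of the list was between 10.66 and 11.34 on all arrays but the dim one, where it was 10.24. No intestinal gene was called between strains at T16.

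Genes of the maturing germ line and cuticle changed in the same interval. Of 22 oocyte and eggshell genes, rme-2 among them, 19 rose from T12 to T16 in GFP, 12 in Abeta and none in GFP::degron, with list medians of 2.01, 1.17 and 0.45. Of all probe sets 8.52%, 5.14% and 0.217% were called higher in these steps. In GFP from T8 to T16 perm-2 rose by 3.47, pos-1 by 3.30, puf-5 by 3.16, perm-4 by 3.07, cpg-2 by 2.91 and egg-1 by 2.73, each with an adjusted p under 0.05. perm-2 and perm-4, eggshell proteins made in the somatic gonad, differed by 0.96 (adjusted p = 0.0589) and 0.64 (adjusted p = 0.394) in Abeta from T12 to T16, and were lower than in GFP at T16 by -3.66 (adjusted p = 1.2e-08) and -2.54 (adjusted p = 0.00112). Of 18 measured sperm genes, 16 rose in GFP from T12 to T16, 13 in Abeta and 1 in GFP::degron, the 1 being msp-76, a major sperm protein (6.17, adjusted p = 0.0377). At T16 the germ line genes also differed between strains. In GFP::degron minus GFP 17 of the 22 oocyte and eggshell genes and 7 of the 18 sperm genes were lower, against 3.11% of all probe sets. In Abeta minus GFP 5 of the 22 and none of the 18 were lower, against 0.235%.

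The adult cuticle collagen col-19, a target of LIN-29, rose by 5.89 ± 0.716 from T12 to T16 in GFP (adjusted p = 1.19e-06) and by 2.76 ± 0.755 in Abeta (adjusted p = 0.0202), and differed by 1.72 ± 0.716 in GFP::degron (adjusted p = 0.203). Of 4 measured adult cuticle genes, 1 was lower and 1 higher in GFP::degron than in GFP at T16. All probe sets had 3.11% lower and 1.78% higher. In Abeta minus GFP 1 of the 4 was lower, against 0.235%, and the list median was 0.25. From T12 to T16 3 of the 4 rose in GFP, 3 in Abeta and none in GFP::degron, with list medians of 3.16, 3.23 and 1.48. Of all probe sets 8.52%, 5.14% and 0.217% were called higher in that step. Of 13 molting genes 6 fell in GFP in that step, against 8.20% of all probe sets, among them nhr-25, a nuclear receptor, by -2.17 ± 0.35 (adjusted p = 6.51e-05), and noah-1, a cuticle matrix protein, by -1.49 ± 0.353 (adjusted p = 0.00345). In Abeta 2 of them fell, against 1.24%. The part of germ line and cuticle growth in the yolk gene results was not tested.

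**Figure D5:**
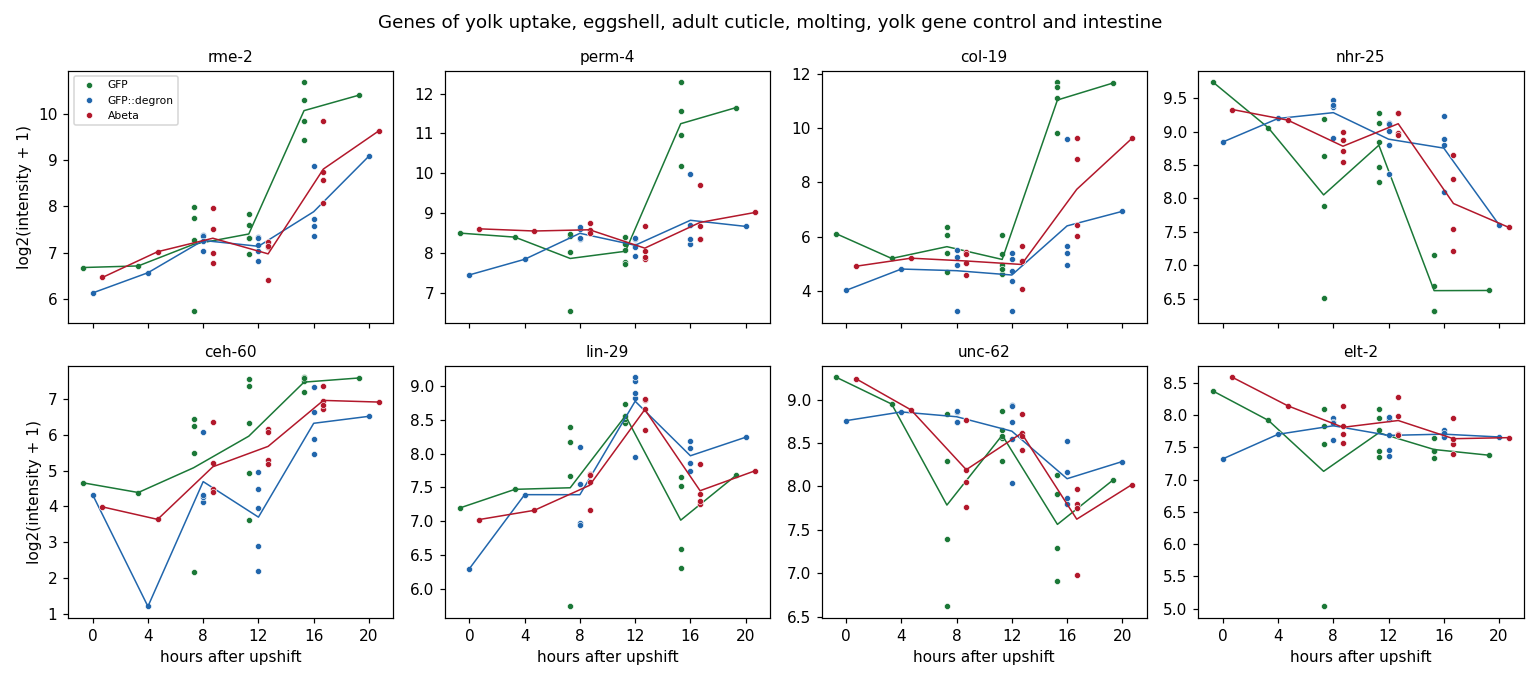
Levels, log2(intensity + 1), of rme-2, perm-4, col-19, nhr-25, ceh-60, lin-29, unc-62 and elt-2 against hours after the upshift, with 1 point per array and a line through the group means of each strain. rme-2 and col-19 rise at 16 h in GFP with the yolk genes, nhr-25 falls, and elt-2 shows no such step; each panel has its own scale.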

How the data were processed

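RNA of whole worms, 5 µg per sample, was converted to biotin-labelled cRNA and hybridised to Affymetrix arrays, per the labels' protocols. The deposited values are linear intensities, 1 per probe set and array, and per the submitters' processing notes Expression Console 1.1 of Affymetrix was used. How probes were summarised is not given in the sources used here, and the labels give no batch. The table held 22625 probe sets. After 77 Affymetrix controls were left out, 22548 were tested, of which 20766 named 1 gene, 887 several and 895 none in the platform's annotation of 2016. All 6 members matched the RefSeq gene table (WBcel235), used for names and neighbours only.

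Intensities were taken to log2(intensity + 1) with no further scaling or filter. A member was read from its brightest probe set by mean log2, and its other probe sets were shown apart. limma 3.58.1 (R 4.3.3) was fitted to the 38 arrays of T8, T12 and T16 with a mean for each of 9 groups, and to the 9 arrays of T0, T4 and T20 with the strain as a block. P-values were adjusted by Benjamini-Hochberg over all 22548 probe sets, with a threshold of 0.05. In simulated data for T16 minus T12 in GFP with 22548 probe sets, 72 of 100 changes of 2 and 98 of 100 changes of 4 (log2) were recovered, with 6 false calls. The number of arrays limits the precision, and groups of 1 array have no spread of their own. Permutation tests and figures used Python 3.11.15.

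Repeat numbers were checked for pairing by the correlation of deviations from the group means. In 4 of 36 pairs of groups every same-numbered pair was over 0.1, among them GFP and Abeta at T16 (0.225 to 0.38) and Abeta at T8 and T16 (0.19 to 0.38). The labels do not say what a number shares, and the fit with the number as a block is an alternative.

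Members and gene lists were chosen with earlier results of these data known. Genes named are all members, the 3 most alike to each and the 6 most alike on average, up to 6 per list with the largest T16 minus T8 change in GFP among those called, and always rme-2, unc-62, ceh-60, mab-3, pqm-1, lin-29, elt-2 and col-19. sma-9, nhr-80, cpr-1 and dsc-4 were named outside this rule. Alternatives changed the scaling, pseudocount, filter, probe set, arrays and covariates.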

Additional observations from a re-analysis of the deposited data

Results flagged for a closer look

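Of 90 groups of 4 or 5 arrays checked, 13 held an array whose gap to the nearest other exceeded the critical share of the group's range; chance flags about 1 in 20. GFP T16 repeat 1 was low for vit-2 (9.83, others 11.45 to 11.75), for vit-4 by sets B (11.83) and C (11.49), for vit-5 (11.62, others 14.70 to 14.94), and for the joint sets A (11.65) and B (11.42) of vit-4 or vit-5. GFP::degron T16 repeat 2 was high for vit-4 by sets B (11.70) and C (11.52), for vit-5 (11.80, others 5.95 to 6.80) and for joint set A (11.48). These 10 values come from 2 arrays and from probe sets that moved together, so they are not independent. The stage score of these arrays was 0.80 for GFP T16 repeat 1, within its group's 0.78 to 0.88, and 0.70 for GFP::degron T16 repeat 2, the highest of its group.

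The other 3 lay at T8, on repeat 1 of each strain, and within the early range. vit-5 read 6.45 in GFP (others 6.94 to 6.99), vit-6 by set A read 7.03 in Abeta (others 7.60 to 7.71), and vit-6 by set B read 0.11 in GFP::degron (others 3.88 to 4.30).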

How the results depend on the processing

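Of 902 recomputed counts of members called, counts of pairs whose steps differ included, 872 stayed within 1.5 times the reported one. Most reported counts were 0, and many of the arrays left out were not in the comparison. A count that loses a call can also stay within 1.5 times. These totals therefore do not measure how stable the calls are. The count for GFP::degron minus GFP at T16 was 0 with the stage score as covariate and 0 with the dim array left out as well. The count for Abeta minus GFP at T16 was 0 with the stage score, 1 with the dim array left out too, 4 with a pseudocount of 16, and 0 with the groups compared alone. T16 minus T12 in GFP::degron gave 1 under quantile normalization, median centring, quantile normalization without the dim array, and the groups compared alone. The T16 minus T8 change in GFP::degron minus GFP gave 4 with a pseudocount of 16. T16 minus T12 in Abeta gave 5 with the other probe sets of vit-4 and vit-6. The cause was not tested, beyond the other probe sets themselves.

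Leaving out each array in turn gave 0 to 3 for Abeta minus GFP at T16, 3 to 4 for GFP::degron minus GFP at T16, 1 to 3 for T16 minus T12 in Abeta, 0 to 2 in GFP::degron and 4 to 4 in GFP. For the change from T8 to T16 it gave 0 to 4 in GFP::degron minus GFP and 0 to 1 in Abeta minus GFP. For T16 minus T8 in Abeta it gave 0 to 3, and quantile normalization, median centring and a pseudocount of 16 gave 3. Leaving out a strain gave 2 to 4 for T20 minus T0.

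Read from set B, vit-4 reversed, with 7.76 for T16 minus T12 and 6.56 for T16 minus T8 in GFP, 3.16 for T16 minus T8 in Abeta, -4.24 for Abeta minus GFP and -6.09 for GFP::degron minus GFP at T16.

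Pairs whose steps differ from T12 to T16 numbered 2 with vit-4 and vit-6 from set B (0 from T8 to T12), 4 with vit-4 from set C, 4 with joint set B and 4 with the first choice and a pseudocount of 16. Reversed steps from T12 to T16 were, for vit-1 minus vit-4, -1.19, -1.12, -1.03, -1.02 and -1.56, for vit-1 minus vit-6, -2.16 and -1.20, for vit-4 minus vit-6, 1.99, 1.90, 1.90 and 0.37, for vit-5 minus vit-6, -0.85, for vit-2 minus vit-4, -0.45, and for vit-2 minus vit-6, -0.085. From T8 to T12 they were -0.079, -0.025 and -0.071 for vit-4 minus vit-5, 0.18 for vit-5 minus vit-6, and -0.51, -0.47 and -0.48 for vit-4 minus vit-6.

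With onset set at a log2 level 3 above the lowest group mean, the hour moved to 6.76 for vit-1 in GFP::degron, 12.9 for vit-1 in Abeta, 3.01 for vit-2 in GFP, 12.8 for vit-2 in Abeta and 18.1 for vit-4 in GFP. The hour of vit-6 (set B) moved to 2.72 in Abeta and 7.88 in GFP::degron. In GFP the group means of vit-1 and of vit-6 (set B) stood above that level from T0 on, so no crossing was found for them.

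Over 145 pairs of arrays with the same number, deviations from the group means correlated at -0.561 to 0.436, with 52 over 0.1. For GFP at T8 and T16 they were 0.338, 0.323, 0.048 and 0.26, and for GFP at T8 and T12 -0.376, -0.308, 0.005 and 0.063. Low correlations cannot show that groups were unpaired, so pairing by number was not settled. With the replicate block the counts were 4 for T16 minus T12 in GFP, 3 in Abeta, 2 for Abeta minus GFP and 4 for GFP::degron minus GFP at T16, with 3 for T16 minus T8 in Abeta, where vit-5 was added to the 2 reported, the only member whose call the block changed.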
